A study of Mus musculus with 10 samples.

Results

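Electron transport ends and ATP synthesis begins in 3 protein assemblies of the inner mitochondrial membrane. The genes studied here are among those that the nucleus supplies to them. The set was chosen by name: protein-coding rows of the count table whose symbol begins with Uqcr, with Cox followed by a digit between 4 and 8 and a letter between a and c, or with Atp5 followed by a letter between a and o, together with Cycs and Cyc1. It holds 41 of the 35275 genes in the table, on 18 chromosomes: 9 genes of complex III with Cyc1 counted among them, Cycs, 16 of complex IV and 15 of ATP synthase. The libraries were made from retinas of C57BL/6 mice aged 10 to 12 weeks. For 5 libraries the mice carried a subcutaneous osmotic pump that delivered vigabatrin (140 mg/kg/day) over 11 days, and the other 5 were labelled vehicle, although their titles call them untreated. Vigabatrin, used against epilepsy, blocks the mitochondrial enzyme that breaks down GABA, and it can narrow the visual field of patients. Each library is called by its treatment plus its title number. Nothing in the labels states that the 5 libraries of a group are 5 different mice, and p-values therefore cover library-to-library spread, which may be technical.

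Complex III takes electrons from ubiquinol and passes them to cytochrome c, a small soluble carrier. Complex IV, cytochrome c oxidase, passes them on to oxygen, and both complexes pump protons whose return through ATP synthase drives the making of ATP. The catalytic cores of complexes III and IV include proteins made from mitochondrial DNA. Most genes described here encode other subunits, which come from nuclear genes, and Cycs encodes cytochrome c. The choice by name misses some nuclear genes of these complexes, which are listed further on. Photoreceptors pack mitochondria into the inner segment and are known for a high demand for oxygen.

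Total counts per library lay between 36056135 and 54052502. Transcripts of 12 lens genes took 1.97% and 1.74% of counts in vigabatrin 2344 and 2429 and 1.92% and 1.29% in vehicle 835 and 1582, against at most 0.103% in the other 6 libraries, and these 4 libraries are called lens-rich below. The tissue label fitted the markers, given in CPM (the count scaled to the library size after TMM scaling). Together 8 rod genes had 52886 to 57869 CPM after vigabatrin and 54111 to 59121 CPM in vehicle. By contrast, 10 skeletal muscle genes together had 7.02 to 8.29 CPM after vigabatrin and 6.96 to 7.95 CPM in vehicle.

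Respiratory genes are known for promoters that bind NRF1 and the ETS-family factor GABP, so the promoter letters are given first. RefSeq promoters (GRCm38.p6) running from 250 bases before to 50 bases after the start were at hand for 33 of the 41 genes. The NRF1-type motif, GCGCA then any base then GCGC, searched on both strands, was present in 8 of the 33 (24.2%), against 5.19% of 27025 genes in the promoter table. Of the 8, 6 belonged to the 14 ATP synthase genes (42.9%), 1 to complex III and 1 to complex IV. The ETS-type motif CCGGAAG, also searched on both strands, was present in 10 of the 33 (30.3%), against 9.93% of all genes. These shares are descriptions of letters in a window, with member promoters at 56.4% GC and all promoters at 53.6%. The YY1-type motif AAGATGGCG was present in Atp5j and Atp5j2 (2 of 33, 6.06%) and in 1.64% of all genes.
The NRF1-type stretches that lie before the start are shown because the motif was found in a larger share of the ATP synthase genes than the ETS-type (35.7%) or YY1-type (14.3%) motif. Capitals mark the motif and lower case its flanks, each read 5′ to 3′ on the gene's own strand, and all 5 genes lie on the minus strand. The other 3 genes with this motif, Uqcrc1, Atp5g3 and Atp5o, hold it elsewhere in the window.
Atp5g2, chr15:102671072-102671097: ctccggccGCGCATGCGCagagcctt
Atp5k, chr5:108434432-108434457: tcactgcgGCGCATGCGCctttctgg
Atp5c1, chr2:10080433-10080457: gagctcccGCGCACGCGCactgagt
Atp5h, chr11:115420043-115420068: ccccgacgGCGCAGGCGCcgcgcccg
Cox6a1, distal, chr5:115349103-115349128: ggaacgggGCGCATGCGCgctctcgc
Cox6a1, proximal, chr5:115349058-115349083: gataaagtGCGCAGGCGCtggagttc
Cox6a1, Atp5h and Atp5k hold both kinds of motif. The ETS-type stretches of Cox6a1 and Atp5h begin 16 and 38 bases before the start.
Cox6a1, chr5:115348960-115348982: catttccgCTTCCGGcgcgccgg
Atp5h, chr11:115419943-115419965: ggagagaaCTTCCGGcaactctc
Among 29 commonly expressed members with a promoter, the median log2 fold change after vigabatrin was -0.07 in the 8 with the NRF1-type motif and -0.09 in the 21 without it. For the ETS-type motif the medians were -0.09 in the 10 with it and -0.07 in the 19 without it. Fold changes ran between -0.11 and -0.03 with the NRF1-type motif and between -0.17 and 0.03 without it.

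How much of each subunit transcript the retina holds was compared per length, as TPM (the count per base of gene length, scaled to the same total in each library) from the counts and the deposited gene lengths. Together the 41 genes made up 0.879% to 0.982% of all TPM after vigabatrin and 0.921% to 0.984% in vehicle. Within complex III the levels were close to each other. Uqcrc1, a large core protein that faces the matrix, was highest at 273 ± 15 TPM after vigabatrin and 281 ± 10.6 TPM in vehicle (SD, n = 5 each). Uqcrq, a small subunit, was lowest at 109 ± 9.55 TPM after vigabatrin and 113 ± 6.69 TPM in vehicle, and the highest mean was 2.5 times the lowest. Cycs stood below all complex III genes at 37.2 ± 1.1 TPM after vigabatrin and 40.4 ± 1.58 TPM in vehicle.

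In complex IV the span was wider, at 7.63 times between the highest and lowest of 10 common genes. Cox8a, a small subunit at the membrane, had 667 ± 30.5 TPM after vigabatrin and 739 ± 63.4 TPM in vehicle, and Cox6c had 87.2 ± 8.24 TPM after vigabatrin and 97 ± 6.77 TPM in vehicle. ATP synthase had the widest span, at 42.3 times. Atp5b, the catalytic beta subunit of the F1 head, led all members at 1554 ± 57.4 TPM after vigabatrin and 1579 ± 60.2 TPM in vehicle, and Atp5g1, a gene for the ring of c subunits, was lowest at 36.4 ± 2.29 TPM after vigabatrin and 37.6 ± 1.82 TPM in vehicle. The order depends on the length used for some genes, since the deposited length of Atp5g1 is 4715 bases, that of Cox6c 3038 and that of Uqcrq 1521, whereas the shortest principal transcripts in GENCODE M21 have 596, 503 and 405 bases. With those lengths Uqcrq was the highest and Uqcrfs1 the lowest in complex III, and the spans became 3.25 times in complex III, 6.97 times in complex IV and 10.2 times in ATP synthase. Atp5b and Cox8a stayed highest in their complexes with either length.

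**Figure D1:**
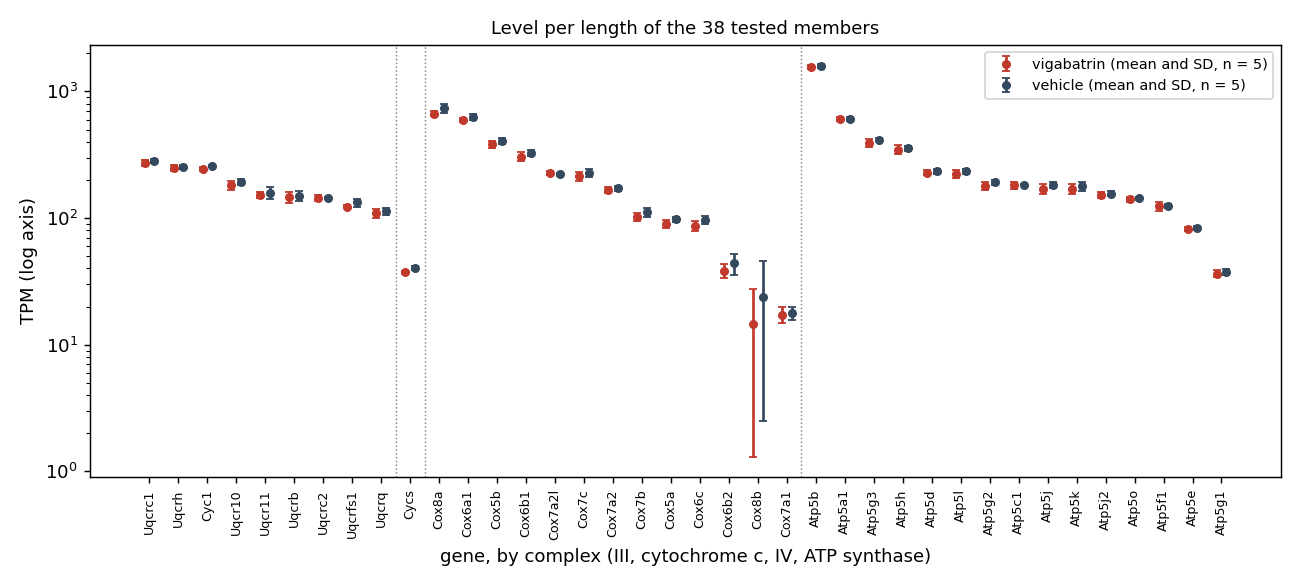
Level per length (TPM, log axis) of the 38 tested members, grouped by complex and ordered by level, with the mean and SD of 5 vigabatrin libraries left of 5 vehicle libraries. Atp5b stands highest, at 1554 TPM after vigabatrin and 1579 TPM in vehicle, and Cox6b2, Cox7a1 and Cox8b lie below the other complex IV genes.

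The comparison asked whether transcripts of these subunits differ in the retina after vigabatrin. Of the 38 members that passed the filter on low counts, 37 had a lower fitted mean after vigabatrin and 1, Cox7a2l, a higher one, against 50.6% of all 17435 tested genes with a lower mean. The shifts were small, with a median log2 fold change of -0.09 against 0.00 for all tested genes. None was called: at an adjusted p under 0.05 edgeR's quasi-likelihood test called 0 of 38 members, against 0.00574% of all tested genes. DESeq2 called 0 of 38, against 0.519% of its genes in either direction and 0.298% lower, and limma-voom called 0, against 0.0172%. At an unadjusted p under 0.05 there were 4 lower members (10.5%), Cycs, Cyc1, Cox5a and Cox6c, and 0 higher ones, against 3.69% of all tested genes lower and 3.68% higher. DESeq2 gave 5 such lower members, against 4.18% of all its genes, and limma-voom 6, against 5.76%. The number ranged between 1 and 13 when single libraries were left out. In bulk tissue, fewer cells of a type and less RNA per cell cannot be told apart. Rod markers also lay lower, in 7 of 8 genes with a median log2 fold change of -0.08. Sag, the rod arrestin, measured -0.21 (SE 0.04) with separate groups, and DESeq2 called 1 of the 8. Pigment epithelium markers were lower in 8 of 9 genes (median -1.50, 5 at an unadjusted p under 0.05) and cornea markers in 4 of 4 tested (median -1.90). With the title range fitted, as described further on, both medians turned, to 0.146 and 0.753, whereas the rod median stayed lower, at -0.063. Without the lens-rich libraries the medians were -0.962 for pigment epithelium, -2.359 for cornea and -0.090 for rod markers. Blood markers were lower in 5 of 5 genes (median -0.575) and bipolar markers in 4 of 6 (median -0.031). Other lists lay higher: lens markers in 11 of 11 tested genes (median 0.29, median SE 1.73) and ganglion cell markers in 6 of 7 (median 0.04). Amacrine and horizontal cell markers divided evenly, with 4 lower and 4 higher (median 0.001) and 1 called by DESeq2. Cone markers also divided evenly (median -0.006), and Muller glia markers were higher in 4 of 7 (median 0.048). With the title range fitted the lens median was 3.618 and the ganglion cell median 0.027. The blood median was then -0.774 and the bipolar median 0.002. The part of these cells in the members' shift was not tested. For a member the standard error was typically 0.06 log2 units, whereas the median over all tested genes was 0.09.

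By complex, the median log2 fold change was -0.12 in complex IV (12 of 13 tested genes lower), -0.08 in complex III (9 of 9 lower) and -0.05 in ATP synthase (15 of 15 lower). The number of genes lower at an unadjusted p under 0.05 was 2 in complex IV, 1 in complex III and 0 in ATP synthase. Whether these medians differ between complexes was not tested. Library means of log2 CPM over the common subunit genes show how the libraries were placed. For complex IV (10 genes) they were 5.91, 6.02, 5.88, 5.89 and 5.91 in vigabatrin 2344, 2347, 2349, 2428 and 2429, against 6.00, 6.07, 6.08, 6.12 and 5.89 in vehicle 832, 835, 1580, 1582 and 2345. For complex III (9 genes) they were 5.84, 5.97, 5.78, 5.85 and 5.85 after vigabatrin, against 5.88, 5.99, 5.96, 6.00 and 5.82 in vehicle. For ATP synthase (15 genes) they were 6.44, 6.57, 6.40, 6.41 and 6.41 after vigabatrin, against 6.48, 6.54, 6.54, 6.58 and 6.41 in vehicle. In every complex vigabatrin 2347 was the highest of its group and within the range of the vehicle libraries, and vehicle 2345 was the lowest of its group and within the range of the vigabatrin libraries.

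**Figure D2:**
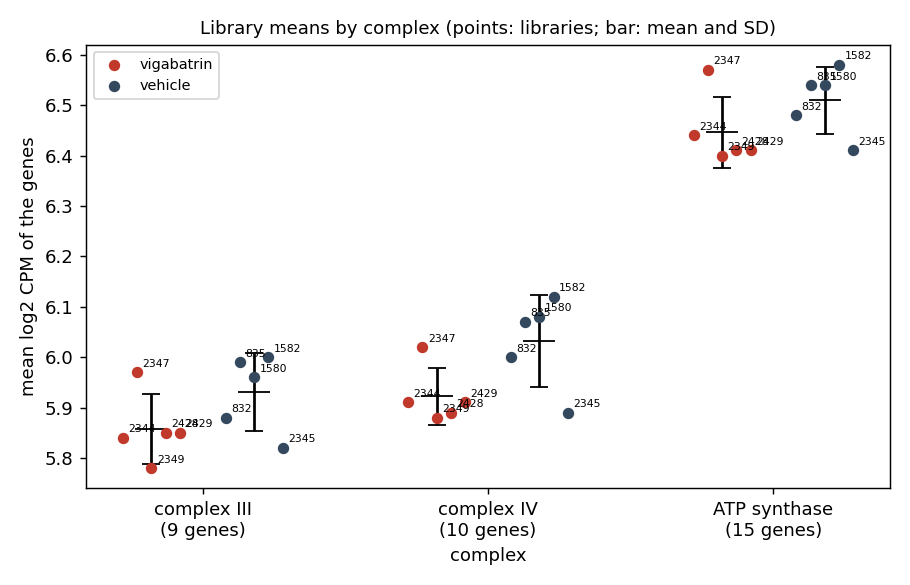
Mean log2 CPM of the common subunit genes of each complex (y axis) in every library, with vigabatrin left of vehicle, points for libraries and bars for the group mean and SD (n = 5 each). Vigabatrin 2347 lies above the other 4 vigabatrin libraries and vehicle 2345 below the other 4 vehicle libraries in all 3 complexes.

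The members varied together from library to library. Of 35 common members, 30 were above their 10-library mean in vigabatrin 2347, against 10, 1, 3 and 5 in vigabatrin 2344, 2349, 2428 and 2429. In vehicle 835, 1580 and 1582 the number above was 32, 31 and 32, in vehicle 832 it was 19, and in vehicle 2345 it was 3. Means over all 35 were 6.11 ± 0.06 log2 CPM after vigabatrin and 6.19 ± 0.08 log2 CPM in vehicle (SD, n = 5 each), a difference of -0.08 that is about as large as the spread within a group. The balance between complexes varied less than their common level. The mean of complex IV minus that of ATP synthase was -0.53, -0.55, -0.51, -0.52 and -0.50 log2 units after vigabatrin, against -0.48, -0.47, -0.46, -0.46 and -0.52 in vehicle. Only vehicle 2345 placed the groups' values in overlap. That library shares its title number range with the vigabatrin libraries, as described further on. The mean of complex III minus that of ATP synthase differed by -0.01 between groups.

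**Figure D3:**
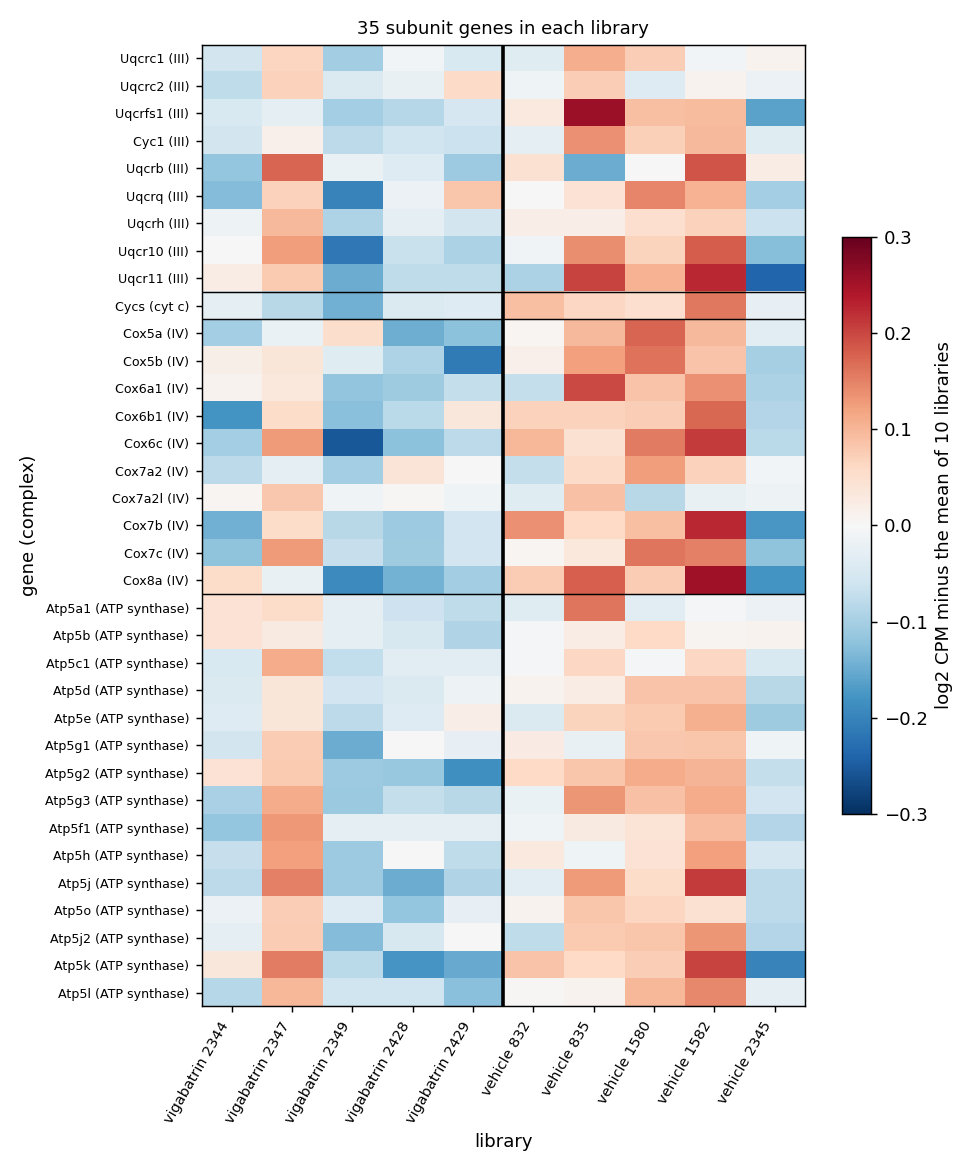
Each of 35 common members (rows, by complex) in each library (columns, 5 vigabatrin left of 5 vehicle), coloured by log2 CPM minus the gene's mean over 10 libraries. Columns are mostly of 1 colour: vigabatrin 2347 is above the mean for 30 genes and vehicle 2345 for 3.

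The title numbers divide the libraries as well. All 5 vigabatrin libraries and vehicle 2345 have numbers above 2000, and the other 4 vehicle libraries have numbers below it. The labels do not call these numbers a batch. When this range entered the fit, so that only vehicle 2345 stood against the vigabatrin libraries within it, the median log2 fold change of the members was 0.03, with 27 of 38 higher and 11 lower and 0 called. The medians by complex were then 0.04 in complex IV, 0.05 in complex III and 0.03 in ATP synthase. Treatment and title range therefore cannot be told apart for the shift of these genes. The same holds for the mean of complex IV minus that of ATP synthase. It was -0.55 to -0.50 log2 units in the libraries above 2000, with vehicle 2345 at -0.52, and -0.48 to -0.46 in the others. Without the 4 lens-rich libraries the members' median was -0.03 with 28 of 38 lower. By complex these medians were -0.062 in complex IV, -0.024 in complex III and -0.022 in ATP synthase, and without vehicle 1580 and 1582 they were -0.076, -0.021 and -0.032. Without vehicle 2345 the members' median was -0.12 with 13 lower at an unadjusted p under 0.05, against 5.94% of all genes in that fit. Without vigabatrin 2347 it was -0.12 with 11, against 3.66%. Leaving out 1 library moved the complex III median between -0.110 without vehicle 2345 and -0.045 without vigabatrin 2349.

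Cytochrome c itself, encoded by Cycs, showed the smallest p of all members. Its level was 40.1, 38.6, 37, 39.7 and 39.8 CPM in vigabatrin 2344, 2347, 2349, 2428 and 2429, against 43.5, 42.7, 42.3, 45.6 and 40.2 CPM in vehicle 832, 835, 1580, 1582 and 2345. Every vigabatrin library lay below every vehicle library, by a margin of 40.1 against 40.2 CPM at the closest. The log2 fold change was -0.13 (SE 0.04, edgeR quasi-likelihood test, adjusted p = 0.525), and -0.041 with the title range fitted. It was the 1 member of 38 whose groups did not overlap in this direction (2.63%), against 0.631% of all tested genes, and 0 members had every vigabatrin library above every vehicle library, against 0.849%. Separate groups in this direction were found for 5 members without vigabatrin 2347, against 1.36% of all genes tested then, and for 5 without vehicle 2345, against 2.55%, and without vehicle 832 and 835 it was 0. Copies of cytochrome c are common in the genome: 28.5% of the 50-base stretches of the Cycs transcript occur in transcripts of other genes, so its count is uncertain to that extent.

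In complex III, Cyc1, the haem-bearing cytochrome c1 that hands electrons to cytochrome c, had 97.1, 102, 95.6, 96.9 and 96.6 CPM after vigabatrin and 99, 111, 106, 108 and 98.4 CPM in vehicle, in the order of libraries given for Cycs. The other 4 vigabatrin libraries lay below every vehicle library, and vigabatrin 2347 exceeded vehicle 832 and 2345. Its log2 fold change was -0.10 (SE 0.04, adjusted p = 0.637), and fitted with the title range it was -0.011. Uqcrfs1, the Rieske iron-sulfur protein that takes the first electron from ubiquinol, had 57.1, 57.9, 54.9, 55.6 and 56.9 CPM after vigabatrin and 60.2, 70.4, 62.8, 63 and 52.8 CPM in vehicle. Its vigabatrin values spanned a narrow range, whereas vehicle held both the highest library, 835, and the lowest, 2345. The log2 fold change was -0.13 (SE 0.06, adjusted p = 0.696).

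The core protein gene Uqcrc1 had 149, 162, 144, 154 and 150 CPM after vigabatrin and 151, 167, 163, 154 and 156 CPM in vehicle, with wide overlap and a log2 fold change of -0.06 (SE 0.04). Uqcr10, a small subunit beside cytochrome c1 and the Rieske protein, had 32.3, 35.2, 27.8, 30.8 and 30.2 CPM after vigabatrin and 32, 35.5, 33.8, 36.6 and 29.5 CPM in vehicle. Vigabatrin 2347 reached the level of the higher vehicle libraries, and the log2 fold change was -0.10 (SE 0.07). Uqcrq had 52.1, 59.8, 49.6, 56.3 and 60.4 CPM after vigabatrin, where 2349 was lowest, and 57, 58.7, 63.1, 61.2 and 53.1 CPM in vehicle, with a log2 fold change of -0.08 (SE 0.07). Over all 9 genes the log2 fold changes ran between -0.13 and -0.01 and adjusted p between 0.637 and 0.988.

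In complex IV, Cox5a, a subunit on the matrix side, had 20.3, 21.5, 22.6, 19.7 and 20 CPM after vigabatrin and 21.9, 23.3, 24.6, 23.3 and 21.3 CPM in vehicle. Only vigabatrin 2347 and 2349 reached into the vehicle range. The log2 fold change was -0.14 (SE 0.06, adjusted p = 0.637), and -0.034 with the title range fitted. Cox6c, a subunit that spans the membrane, had 87.8, 103, 79, 86.5 and 89.2 CPM after vigabatrin and 101, 97.2, 105, 109 and 89.1 CPM in vehicle. Vigabatrin 2347 stood with the higher vehicle libraries, and the other 4 vigabatrin libraries reached at most 89.2 CPM, next to vehicle 2345. The log2 fold change was -0.17 (SE 0.07, adjusted p = 0.64), and -0.001 with the title range fitted. Cox8a had 134, 127, 113, 117 and 120 CPM after vigabatrin and 136, 146, 136, 154 and 114 CPM in vehicle, where 2345 lay far below the other 4. Its log2 fold change was -0.17 (SE 0.08, adjusted p = 0.684), and fitted with the title range it was 0.106.

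Cox6b1, the common form of subunit 6B that faces the intermembrane space, had 47.6, 56, 49.4, 51 and 55.2 CPM after vigabatrin and 56.6, 56.6, 56.8, 60.8 and 50.7 CPM in vehicle. Vehicle was even apart from 2345, and the log2 fold change was -0.12 (SE 0.06). Cox7b, a membrane subunit encoded on the X chromosome, had 32.4, 37.2, 33.8, 33.2 and 34.4 CPM after vigabatrin and 39.4, 37.3, 38.1, 41.9 and 31.7 CPM in vehicle, with vehicle 2345 the lowest of all 10 libraries and a log2 fold change of -0.14 (SE 0.07). The 13 tested genes of the complex ran between -0.78 and 0.03 on the log2 scale, the lower end being the scarce and variable Cox8b, and their adjusted p between 0.637 and 0.948. Cox7a2l, which is related to subunit 7A and known for joining complexes III and IV into supercomplexes, was the member with a higher mean. It had 87.4, 92, 86.4, 87.2 and 86.2 CPM after vigabatrin and 84.8, 92.5, 82.1, 85.6 and 86.1 CPM in vehicle (log2 fold change 0.03, SE 0.04), and without vehicle 1580 and 1582 its sign turned, at -0.004.

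**Figure D4:**
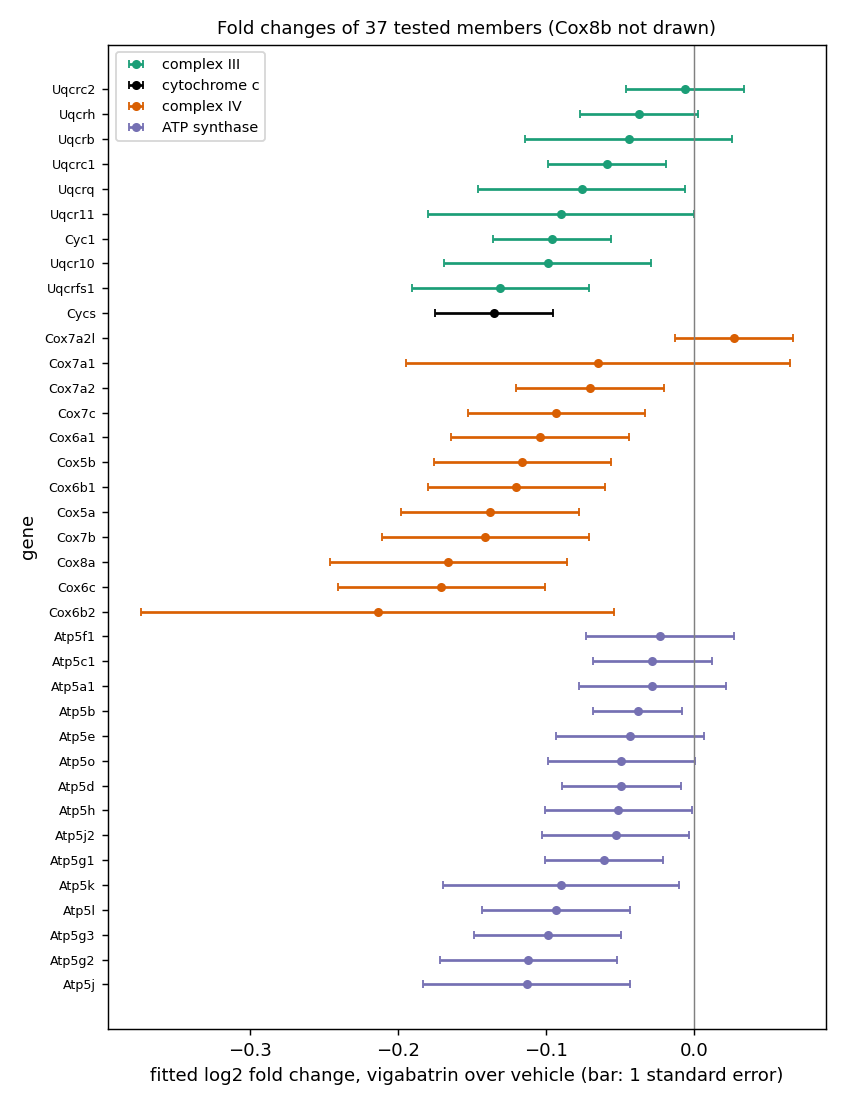
Fitted log2 fold change of vigabatrin over vehicle (x axis) with 1 standard error for 37 tested members, coloured by complex; Cox8b, at -0.78 with a standard error of 0.86, is not drawn. All but Cox7a2l lie below 0, between -0.21 and -0.01.

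Several complex IV subunits come in forms that differ by tissue, one of which is usually known from heart and muscle or from testis. The common forms dominated in the retina. Cox6a1 had 129, 131, 118, 119 and 122 CPM after vigabatrin and 122, 147, 136, 141 and 120 CPM in vehicle (log2 fold change -0.10, SE 0.06), whereas Cox6a2, the heart and muscle form, had 3 to 13 counts per library and was not tested. Of the testis forms, Cox7b2 had 0 to 3 counts per library, and Cox8c had 0 in all 10, which allows up to 0.0555 to 0.0832 CPM by counting error (3 counts of each library's total).

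Other second forms were measurable. Cox6b2, known as the testis form of subunit 6B, had 8.96, 8.62, 6.89, 6.27 and 7.2 CPM after vigabatrin and 7.3, 9.93, 9.5, 10.9 and 6.29 CPM in vehicle. Per length it made up 11.2% ± 1.73 of the subunit 6B transcripts after vigabatrin and 11.8% ± 1.79 in vehicle (SD, n = 5 each; exact two-sided permutation p = 0.627, 0.976 after adjustment over 6 such shares). Cox7a1, the heart and muscle form of subunit 7A, had 2.07, 2.42, 2.31, 2.07 and 1.7 CPM after vigabatrin and 1.98, 2.35, 1.87, 2.64 and 2.21 CPM in vehicle, beside Cox7a2 at 40.8, 42.2, 40.1, 44.2 and 43 CPM after vigabatrin and 41, 44.8, 47, 45.2 and 42.8 CPM in vehicle. Cox7a1 thus held 9.44% ± 1.3 of the 2 genes' sum per length after vigabatrin and 9.39% ± 1.16 in vehicle (exact permutation p = 0.976). The log2 fold changes were -0.21 (SE 0.16) for Cox6b2, -0.07 (SE 0.13) for Cox7a1 and -0.07 (SE 0.05) for Cox7a2.

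Cox8b, the heart and muscle form of subunit 8, varied more than any other tested member. It had 2.74, 3.91, 0.115, 0.259 and 1.9 CPM after vigabatrin and 1.71, 6.62, 0.66, 5.38 and 0.745 CPM in vehicle, so that both groups held libraries near 0.1 to 0.7 CPM and libraries of several CPM. Its log2 fold change was -0.78 (SE 0.86, adjusted p = 0.895), and its sign turned without the lens-rich libraries (0.387) and with the title range fitted (1.245). Its share of the subunit 8 transcripts per length ranged between 0.154% and 6.38% and did not separate the groups (exact permutation p = 0.5, adjusted 0.976). The libraries rich in Cox8b were those rich in pigment epithelium markers. The sum of 9 such markers, none at 0 in any library, was 367, 111, 14.5, 14 and 67.3 CPM after vigabatrin and 191, 940, 25.2, 282 and 27.4 CPM in vehicle. Pmel and Tyrp1 had the highest means of the 9, at 56.1 and 35.5 CPM after vigabatrin and 116 and 72.2 CPM in vehicle. Across the 10 libraries on a log2 scale, Cox8b and this sum had Pearson's r = 0.90 (permutation p = 0.00037) and Spearman's rho = 0.90 (permutation p = 0.0008). These were 0.0122 and 0.0251 after adjustment over 33 relations, and r was 0.86 without the libraries farthest from the median marker sum. This relation was looked for after the values were seen and is given over both treatments only, and the part of pigment epithelium in the Cox8b level was not tested. With 5 cornea markers the same measure gave r = 0.64 (permutation p = 0.0485, adjusted 0.267), and 0.94 without the 2 libraries farthest from their median. With amacrine and horizontal cell markers it gave r = -0.80 (permutation p = 0.00557, adjusted 0.0613). With 10 skeletal muscle markers it gave r = -0.09.

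**Figure D5:**
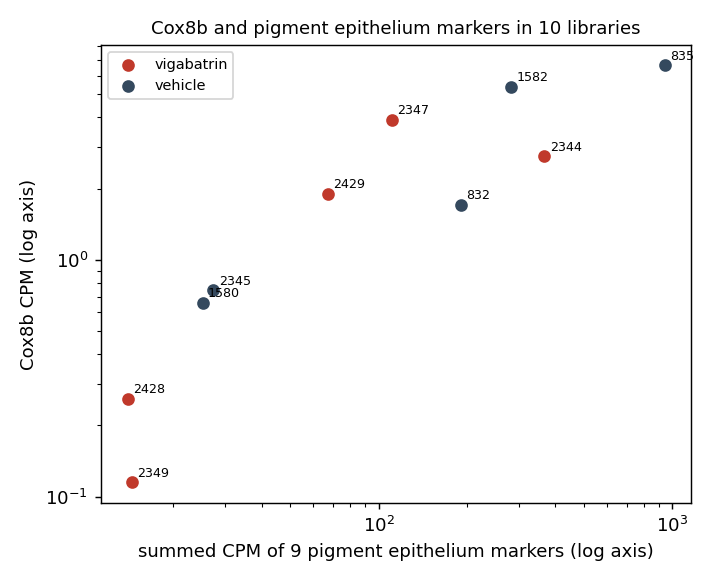
Cox8b CPM (y axis, log) against the summed CPM of 9 pigment epithelium markers (x axis, log) in each library, coloured by treatment and marked with the title number. Libraries of both groups lie along 1 rising band, with vigabatrin 2349 and 2428 lowest and vehicle 835 highest.

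Cox6b2 was related to the sum of 7 Muller glia markers, with r = 0.86 (permutation p = 0.00206, adjusted 0.034) and rho = 0.88 (permutation p = 0.00152, adjusted 0.0251), with r = 0.86 after 2 libraries were left out. This relation came from the same search as that of Cox8b, made after the values were seen, and is given over both treatments only. For both genes the permutations took no account of treatment or title range. Cox6b2 averaged 7.59 CPM after vigabatrin and 8.79 CPM in vehicle. With pigment epithelium markers Cox6b2 had r = 0.69 (permutation p = 0.0307, adjusted 0.202) and with amacrine and horizontal cell markers r = -0.77 (permutation p = 0.00914, adjusted 0.0754), and Cox8b had r = 0.62 with Muller glia markers (permutation p = 0.0575, adjusted 0.271). The Muller glia sum itself ranged only between 3963 and 4538 CPM after vigabatrin and between 4116 and 5015 CPM in vehicle, and its part in the Cox6b2 level was not tested. Most of the sum was Glul, at 2569 CPM after vigabatrin and 2838 CPM in vehicle. After vigabatrin 3 of the 7 markers had lower and 4 higher means, with Glul at -0.14, Slc1a3 at 0.15 and Aqp4 at 0.11. For Cox7a1 none of 11 marker lists passed the adjusted threshold.

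In ATP synthase the smallest p values fell on subunits of the membrane part and the stalk, none called. The c ring that rotates in the membrane is encoded by 3 genes whose mature proteins are known to be the same. Atp5g3 had 110, 127, 109, 112 and 111 CPM after vigabatrin and 116, 129, 125, 127 and 113 CPM in vehicle, and vigabatrin 2347 matched the highest vehicle libraries while the others lay below the lowest, 2345. Its log2 fold change was -0.10 (SE 0.05, adjusted p = 0.724). Atp5g2 had 48.5, 49.7, 43.6, 43.5 and 41.4 CPM after vigabatrin and 49, 49.8, 50.8, 50.5 and 44.8 CPM in vehicle (log2 fold change -0.11, SE 0.06, adjusted p = 0.718). Atp5g1 had 56.7, 62.1, 53.1, 58.9 and 57.9 CPM after vigabatrin and 59.9, 58, 62.3, 62.4 and 58.4 CPM in vehicle (log2 fold change -0.06, SE 0.04).

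The division of the c ring transcripts among the 3 genes was steady. Per deposited length Atp5g3 held 64.6% ± 1.13 after vigabatrin and 64.5% ± 0.763 in vehicle, Atp5g2 held 29.4% ± 1.26 after vigabatrin and 29.7% ± 0.604 in vehicle, and Atp5g1 held 5.99% ± 0.245 after vigabatrin and 5.83% ± 0.264 in vehicle (SD, n = 5 each). Exact permutation p-values for these shares were 0.905, 0.714 and 0.365, each 0.976 after adjustment. With the shortest principal transcripts as lengths, Atp5g1 held 26.7%, so the order of Atp5g1 among the 3 rests on its length. All 50-base stretches of the Atp5g2 transcript and 66% of those of Atp5g1 occur in transcripts of other genes, against 0% for Atp5g3, so the counts of the first 2 are uncertain.

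Among the other subunits, Atp5j, coupling factor 6 of the stalk, had 52.4, 61.5, 51.3, 49.9 and 52 CPM after vigabatrin and 54.1, 60.5, 57.5, 64 and 52.4 CPM in vehicle. Vigabatrin 2347 stood with the 2 highest vehicle libraries, and the log2 fold change was -0.11 (SE 0.07, adjusted p = 0.767). Atp5l, subunit g of the membrane part, had 37, 42.1, 37.7, 37.7 and 36 CPM after vigabatrin and 39.4, 39.6, 42.1, 43.4 and 38.5 CPM in vehicle (log2 fold change -0.09, SE 0.05, adjusted p = 0.744). Its groups overlapped through vigabatrin 2347 alone, and 84.8% of its 50-base stretches are shared with other genes. Atp5b, the most abundant member, had 1045, 1033, 993, 980 and 953 CPM after vigabatrin and 1012, 1029, 1056, 1020 and 1021 CPM in vehicle. It differed little between libraries, with a log2 fold change of -0.04 (SE 0.03, adjusted p = 0.861). The 15 genes ran between -0.11 and -0.02 on the log2 scale, with adjusted p between 0.718 and 0.949.

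Other genes of oxidative phosphorylation were read from the same test, in which 0 members of any of these lists were called by edgeR, DESeq2 or limma-voom. Of 7 genes tied to the same complexes whose symbols the name rule misses, 6 had lower means (median log2 fold change -0.07, 1 lower at an unadjusted p under 0.05). Cox4i1 and Cox4i2, the forms of subunit 4 of complex IV, measured -0.06 (SE 0.06) and -0.02 (SE 0.09), and Usmg5, a small ATP synthase subunit, -0.18 (SE 0.07, adjusted p = 0.631). The others were Ndufa4, also counted with complex I, at -0.08, 2010107E04Rik at -0.07, Atpif1, the inhibitor of ATP synthase, at -0.08 and Atp5s at 0.07. Of 37 tested nuclear genes of complex I, 33 had lower means (median -0.06, 2 lower at an unadjusted p under 0.05), with Ndufb11 at -0.16 and Ndufs5 at -0.15. In complex II, which holds no mitochondrially encoded subunit, Sdha measured 0.02, Sdhb -0.06, Sdhc -0.08 and Sdhd -0.09, 1 of them lower at an unadjusted p under 0.05. Fitted with the title range, the medians of these 3 lists were 0.053, 0.026 and 0.003.

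Carriers that feed ATP synthase had lower means in 6 of 7 genes (median -0.06, 1 lower at an unadjusted p under 0.05). Slc25a3, the phosphate carrier, measured -0.10 (SE 0.04), the ADP and ATP exchangers Slc25a4 and Slc25a5 -0.09 and -0.10, the outer membrane channels Vdac1, Vdac2 and Vdac3 0.00, -0.06 and -0.01, and the mitochondrial creatine kinase gene Ckmt1 -0.06. The carriers' median turned to 0.019 with the title range fitted.

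Assembly factors build the complexes without staying in them. Of 22 tested factors for complex IV, 10 had lower and 12 higher means (median 0.01), and the 3 of smallest p were Coa7 at 0.11, Cox11 at -0.16 and Cox16 at -0.24. Of 6 for complex III, 4 had lower means (median -0.03), with Hccs and Ttc19 at -0.08, Uqcc1 at -0.05, Uqcc2 at -0.01, Bcs1l at 0.00 and Lyrm7 at 0.01. Of 4 for ATP synthase, 3 had lower means (median -0.055): Atpaf1 measured 0.06, Atpaf2 and Tmem70 -0.07 and Oxa1l -0.04. In these 3 lists 0 genes were past an unadjusted p of 0.05. Whether assembly factors and subunits differ in their shift was not tested.

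Subunits of the same complexes made from mitochondrial DNA gave mt-Cytb 5502 ± 518 CPM after vigabatrin and 5508 ± 414 CPM in vehicle, and mt-Co1 7913 ± 497 CPM after vigabatrin and 7863 ± 506 CPM in vehicle (SD, n = 5 each; log2 fold changes 0.00 and 0.01). Counts of mt-Co2, mt-Co3 and mt-Atp6 were far lower, at 24.1, 16.9 and 16.1 CPM after vigabatrin and 22.7, 17.3 and 16.1 CPM in vehicle, so these 3 are uncertain as measures of their transcripts. Of 5 tested, 2 had lower means and 0 were past an unadjusted p of 0.05. Their median of 0.004 became 0.177 with the title range fitted and 0.139 without the lens-rich libraries. Of 12 regulators of mitochondrial gene expression, 5 had lower means (median 0.02, but -0.041 with the title range fitted and -0.060 without the lens-rich libraries). Ppargc1b, a coactivator of mitochondrial genes, had 63.1 ± 2.82 CPM after vigabatrin and 75.6 ± 8.4 CPM in vehicle, and its groups overlapped. It measured -0.26 (SE 0.07, adjusted p = 0.489) and was the 1 regulator past an unadjusted p of 0.05, while its relative Ppargc1a measured 0.02. Gabpa, a subunit of GABP, measured 0.10, Tfam, which packages mitochondrial DNA, -0.13, and Nrf1 -0.08.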

How the data were processed

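Read counts per gene for 10 mouse retina libraries, 5 vigabatrin and 5 vehicle, were taken as deposited by the authors: raw, unnormalized counts of reads per gene. The submitters' processing notes list HTSeq 0.6.1, edgeR 3.16.5, DESeq2 and mm10. No aligner, annotation release or strand setting is given in the sources consulted, and reads of overlapping genes cannot be told apart. The table held 1 column matching no sample used here, which entered no step.

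Genes kept by filterByExpr (17435) were fitted to treatment alone with glmQLFit and glmQLFTest of edgeR 4.0.16 (R 4.3.3) after TMM scaling, and a gene was called at a Benjamini-Hochberg adjusted p below 0.05. Standard errors were obtained by dividing the log2 fold change by the root of F. CPM uses TMM library sizes, library means use log2 CPM with a prior count of 2, and TPM uses the deposited gene lengths. The scarce Cox6b2, Cox7a1 and Cox8b were left out of library means. The 3 untested members were Cox6a2, Cox7b2 and Cox8c. Tests were tried on simulated data first, with 50 genes changed by each size. There edgeR called 0% of genes changed 1.1-fold, 10% at 1.25-fold, 48% at 1.5-fold and 75.5% at 2-fold, with 4 false calls. Percentages are of the changed genes kept by the filter. The changed genes were drawn from all tested genes, whose median standard error was 0.09 against 0.06 for members. They were also simulated independently of each other, whereas the members vary together. These rates therefore do not give the rate for members. The absence of called members does not show that shifts as small as 1.1-fold are absent. No pair of libraries in a group was a duplicate, since chi-square over degrees of freedom ran between 7.98 and 130. Marker sums were related to scarce isoforms on log2(CPM + 0.01) with 100000 permutations. Floors cover counting error only, whereas standard errors come from the fit and include the spread between libraries.

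Members and lists were chosen with earlier results of these data known. Values in every library are given for Cycs and Cyc1, the 4 genes of smallest p per complex, members whose groups do not overlap, all detected isoforms and the extremes of level. For pathway lists, fold changes are given for up to 3 genes of smallest p and for all genes of lists with at most 7. Ppargc1a, Nrf1 and Sag were named after their values were seen, and 1 gene that the rule names is not reported here. Alternatives covered normalization, filter, tool (DESeq2 1.42.0, limma 3.58.1), left-out libraries, a title-range term and a gene-length trend (loess span 0.3). Without vehicle 832 and 835 together, and with GENCODE M21 lengths, were added after seeing the data. Of 41 members, 6 share at least 50% of their 50-base stretches with other genes' transcripts.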

Additional observations from a re-analysis of the deposited data

Results flagged for a closer look

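A single library stood far from its group in 10 of the 86 groups of 5 that were looked at. About 1 in 20, here 4.30, would be so by chance. In 9 of the 10 that library was vigabatrin 2347, high each time. It had 102 CPM of Cyc1 (others 95.6 to 97.1), 92 CPM of Cox7a2l (others 86.2 to 87.4) and 57.5 CPM of Cox7c (others 48.4 to 50.6). Among ATP synthase genes it had 116 CPM of Atp5c1 (others 102 to 105), 127 CPM of Atp5g3 (others 109 to 112), 61.5 CPM of Atp5j (others 49.9 to 52.4) and 42.1 CPM of Atp5l (others 36 to 37.7). Its mean over complex IV genes was 6.02 log2 CPM (others 5.88 to 5.91) and over ATP synthase genes 6.57 (others 6.40 to 6.44). The same library held the least lens signal, with 3.89 CPM summed over 12 markers. These flags are not independent of each other, since the genes vary together from library to library. The remaining case was vehicle 835, with 611 CPM of Atp5a1, the alpha subunit of the F1 head, against 533 to 546 CPM. Vehicle 835 also held the most pigment epithelium markers, at 940 CPM, and the part of that tissue in the Atp5a1 level was not tested.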

How the results depend on the processing

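No paired analysis was possible because the groups share no replicate number. No alternative called a member. The number of genes called over the whole table was 1, and it was 0 with library-size scaling, with the filter of at least 1 count, with the length trend removed, with the title-range term, without the lens-rich libraries, without vehicle 1580 and 1582 and without vehicle 832 and 835. It was 87 with DESeq2, 3 with limma-voom and 0 to 39 when 1 library was left out, the 39 without vehicle 2345. With the title-range term, where 1 vehicle library stands against 5 vigabatrin libraries, the median log2 fold change was 0.032 for all members, 0.046 for complex III, 0.044 for complex IV and 0.026 for ATP synthase, and 12 of 23 named members changed sign: Uqcrfs1 0.098, Uqcrq 0.066, Uqcr10 0.084, Cox6a1 0.048, Cox6b1 0.032, Cox6b2 0.269, Cox7b 0.108, Cox8a 0.106, Cox8b 1.245, Atp5g2 0.018, Atp5g3 0.010 and Atp5j 0.026. Cycs, Cyc1, Cox5a and Cox6c kept their sign but came closer to no change. They measured -0.041, -0.011, -0.034 and -0.001 with this term, against -0.135, -0.096, -0.138 and -0.171 without it. The cause of these changes was not tested. Without the lens-rich libraries, which leaves 3 in each group, Cox7a1 measured 0.17 and Cox8b 0.387, and without vehicle 1580 and 1582 Cox7a2l measured -0.004. Leaving out 1 library moved the members' median between -0.119 and -0.067 and Cox7a1 between -0.121 and 0.003, and gave 1 to 5 members with separate groups, the 5 without vigabatrin 2347 or vehicle 2345; without vehicle 832 and 835 there were 0. Across the other scalings, tools and the length trend the members' median lay between -0.092 and -0.076. With the shortest principal transcript as length, Uqcrc1 held 13.1% of complex III, Cox8a 20.7% of complex IV, Atp5b 25.6% of ATP synthase, Atp5g1 26.7% of the c ring and Cox6b2 16.7% of subunit 6B. Shifts of the size seen here are close to the median standard error of 0.06, which limits what 5 libraries per group can show.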
